A study of Homo sapiens with 6 samples.

Results

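DNA replication genes were followed in A375 cells, an established melanoma cell line, after a day of BRAF inhibition. The set was a list of 46 genes that act at origins and forks. Its members were found on the array as the probes that GEO's platform annotation gives those symbols, which were 69 probes, and 43 of the 46 genes had a probe that passed the detection filter. The whole table held 11220 such genes. The listed genes were placed in 7 steps: origin licensing, origin firing, polymerases, clamp and clamp loader, strand maturation, nucleotide supply, and chromatin assembly with fork surveillance.

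The 6 samples were total RNA of A375 cells kept for 24 h with the solvent DMSO (n = 3) or with 3 µM vemurafenib (n = 3), a kinase inhibitor directed at mutant BRAF. All came from the same cell line, each was hybridised to 1 Illumina bead array, and no genotype differed between the groups. The labels of each group call the samples unnumbered, 1 and 2, and do not say whether these were separate cultures, so the p-values below measure a spread that may be technical. The design compared the treatments to ask which transcripts differ after the drug.

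Before a cell enters S phase, the origin recognition complex, CDC6 and CDT1 load the MCM2 to MCM7 helicase onto DNA, a step called licensing. Kinases then recruit CDC45 and the GINS complex to turn the loaded helicase into an active fork, and polymerases copy the strands on a PCNA clamp that replication factor C loads. Many of these genes are transcribed at the entry into S phase under E2F transcription factors, which the RB protein holds back until cyclin-dependent kinases release them.

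The promoters of these genes were searched for E2F-type sites, since the genes moved together, and 6 are shown to let the shared letters be seen. The motif was any of TTTCCCGC, TTTCGCGC, TTTGCCGC or TTTGGCGC on either strand, in the window from 250 bases before to 50 after each RefSeq start (GRCh38.p14), with overlapping matches counted singly. Of 40 listed genes with a window in the table, 24 held at least 1 match (60.0%), against 6.72% of the 9086 tested genes with a window. It was 3.99% of all 27305 genes with a window. Of 40 replication genes outside the list, from the second list described below, 11 held a match (27.5%). Counted by window, the share was 46.3% for the listed genes and 3.31% for all 35116 windows of that length. Of the 32 matches, 25 began within 100 bases of the start. The stretches below run 5′ to 3′ along the gene's strand, are 100 bases long and have the match in capitals. Each belongs to the member of its step that fell most among those that passed the test and held a match.
CDT1, chr16:88803708-88803807, plus strand: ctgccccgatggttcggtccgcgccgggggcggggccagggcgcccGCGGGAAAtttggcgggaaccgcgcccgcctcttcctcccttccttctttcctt
GINS2, chr16:85688932-85689031, minus strand: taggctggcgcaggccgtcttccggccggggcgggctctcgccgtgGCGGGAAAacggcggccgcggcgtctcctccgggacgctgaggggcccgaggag
POLE2, chr14:49688166-49688265, minus strand: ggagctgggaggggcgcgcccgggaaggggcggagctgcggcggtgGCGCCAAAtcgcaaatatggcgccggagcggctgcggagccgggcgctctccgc
RFC3, chr13:33818048-33818147, plus strand: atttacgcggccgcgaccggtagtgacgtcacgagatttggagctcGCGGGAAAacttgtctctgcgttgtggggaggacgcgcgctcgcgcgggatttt
EXO1, chr1:241848154-241848253, plus strand: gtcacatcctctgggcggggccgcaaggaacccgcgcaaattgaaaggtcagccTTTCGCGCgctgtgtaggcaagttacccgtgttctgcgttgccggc
UHRF1, chr19:4909441-4909540, plus strand: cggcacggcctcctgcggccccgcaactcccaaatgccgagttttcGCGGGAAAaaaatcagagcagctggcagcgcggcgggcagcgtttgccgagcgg

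The match did not separate the members that changed most from the rest. The 22 measured genes with a match had a median log2 change of -1.58 (16 fell by the test) and the 16 without one had a median of -1.45 (12 fell). CDC45, MCM10 and RRM2, with some of the largest falls, held no match in their windows. Of the steps, licensing had the most genes with a match, 7 of 9, and the nucleotide step had 2 of 5. Matches to CCAAT, the letters bound by NF-Y, stood in the windows of 24 of 40 genes (60.0%, against 44.11% of tested genes), and matches to TTTGAA, letters of the cell cycle homology region of mitotic genes, in 2 of 40 (5.0%, against 14.04%). A match is only a string of letters, and whether a factor was bound there was not measured.

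Between 38.2% and 41.7% of probes were detected per array, at a detection p under 0.01. ACTB and GAPDH, the control genes, differed between the groups by -0.13 and -0.10 on the log2 scale (adjusted p = 0.693 and 0.684). Of the melanocyte markers, SOX10, MITF and S100A1 were detected on all 6 arrays (MITF rose by 0.75 on the log2 scale, adjusted p = 0.0333), PMEL on 2 and MLANA on 1, while TYR, TYRP1 and S100B were detected on none, so the pigment markers of the lineage were mostly absent. Leukocyte, endothelial and keratinocyte marker lists gave summed signals that overlapped between the groups. PTPRC, CD3E, CDH5, KDR, KRT5, KRT1 and DSG3 were detected on no array. Other members of these lists were detected. CD68 was found on 3 of 3 DMSO and 3 of 3 vemurafenib arrays (log2 8.51 to 10.46), LYZ on 3 and 2, and CD14 on 2 and 2. KRT14 was found on 1 DMSO and 3 vemurafenib arrays, VWF on 0 and 2, and PECAM1 on 1 and 0. The 6 fibroblast genes together read 140.0 to 158.2 normalised intensity units in DMSO and 200.04 to 335.6 in vemurafenib, each of the 6 was detected on at least 1 array, and DCN and COL1A1 were detected on 0 of 3 DMSO and 3 of 3 vemurafenib arrays. Their part in the results below was not tested.

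The samples labelled 2 stood apart from the other samples in both groups. Over the replication genes, DMSO 2 lay above both other DMSO samples for 39 of 43 genes (90.7%, against 42.9% of all genes) and vemurafenib 2 above both other vemurafenib samples for 41 of 43 (95.3%, against 39.9%). The median offset was 0.59 on the log2 scale in DMSO and 0.88 in vemurafenib. Values with and without these samples are therefore given for the counts.

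After vemurafenib, most of the replication genes fell. All 43 measured genes had a negative log2 change, against 45.9% of all genes tested, and 32 of them fell at a limma adjusted p under 0.05, against 7.95% of all genes. None rose, against 8.09% of all genes. An unadjusted limma p under 0.05 was found for 40 of the 43, against 3962 of all 11220 genes. The median log2 change was -1.56, while the median of all genes was 0.05. A fall of at least 2-fold was measured for 33 of 43 genes and 5.43% of all genes. The 3 vemurafenib values lay wholly below the 3 DMSO values for 39 of 43 genes, against 18.0% of all genes. The groups overlapped for ORC6, CDC6, GINS3 and RPA3. Of the 43 genes, 37 were detected on all 6 arrays, and 27 of these fell. CDC6, GINS4, MCM10, RRM2, CHAF1A and DTL were detected on fewer than 3 vemurafenib arrays and met the filter with the help of the DMSO arrays, where they were higher, so the 5 of them that fell are no independent support. In RNA of whole cultures, fewer cells in S phase and less of each RNA per cell cannot be told apart.

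**Figure D1:**
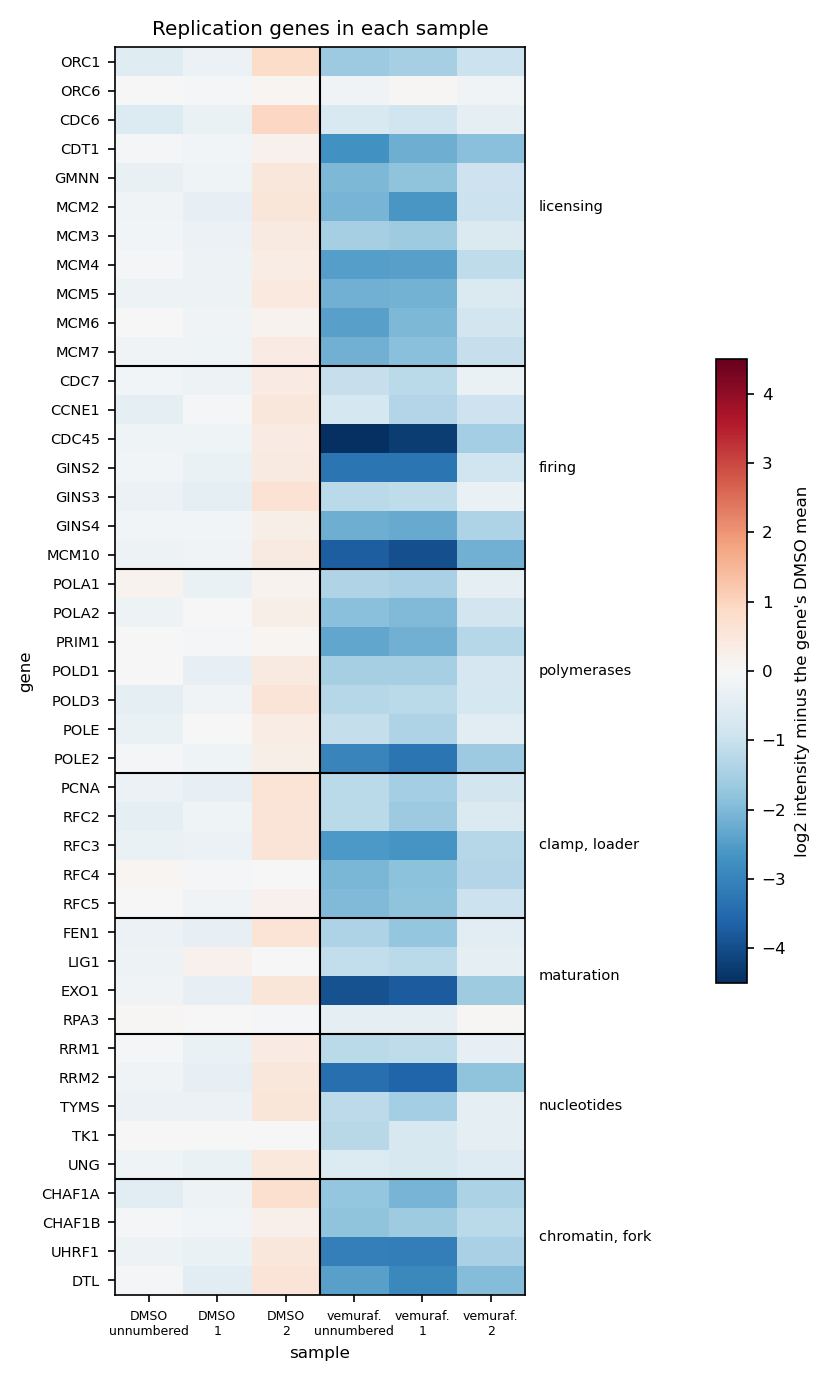
Normalised log2 intensity of the 43 measured replication genes (rows, by step) in each of the 6 samples (columns), as the difference from the gene's mean over the 3 DMSO samples. The vemurafenib samples are blue for nearly all genes, darkest for CDC45, MCM10, EXO1 and RRM2, and vemurafenib 2 is paler than the other two.

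The size of the falls depended on the background correction. All 43 changes were larger with the correction used here than without one, and for ORC1, CDC45, GINS4, MCM10, POLE2, RFC3, EXO1, RRM2, CHAF1A and DTL the fold differed by over 1.5 times. Without correction CDC45 was 5.59-fold lower, EXO1 3.86-fold, MCM10 3.85-fold, RRM2 3.08-fold, POLE2 2.93-fold, RFC3 2.70-fold, DTL 2.48-fold, GINS4 1.85-fold, CHAF1A 1.76-fold and ORC1 1.65-fold, and the authors' deposited log2 values gave nearly these sizes (5.75-fold for CDC45). ORC1, POLE, POLD3 and RFC2 did not pass without correction (adjusted p = 0.0690, 0.0540, 0.0577 and 0.0527). The folds of these genes given below hold for the corrected values.

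How many of these falls passed depended on the samples in the fit. With the sample label as a block, which compares unnumbered with unnumbered, 1 with 1 and 2 with 2, 40 of 43 genes fell, the 32 among them, against 13.6% of all genes in that fit. Neither the labels nor the values show how the unnumbered and 1 samples pair. Without both samples labelled 2 the count was 39, again with the 32 included, against 14.8% of all genes. Without vemurafenib 2 alone it was 39, against 11.2%. It was 8 without the unnumbered vemurafenib sample, 9 without vemurafenib 1, 10 without the unnumbered DMSO sample, 16 without DMSO 2 and 17 without DMSO 1, in fits that called between 1.63% and 5.13% of all genes lower. If the unnumbered and 1 samples are taken as repeats of 1 culture and averaged, 2 samples against 2 are left. In that limma fit 0 of 43 genes passed (lowest adjusted p = 0.0745), against 0.107% of all genes. There 34 of the 43 had an unadjusted p under 0.05, a count not given here for all genes. The calls of CDT1, GINS4, MCM10, PRIM1, POLE2, RFC4, CHAF1B and DTL held without each single sample in turn. Of these, GINS4, MCM10 and DTL met the filter with the help of the DMSO arrays, where they were higher. The filter set on all 6 arrays was kept in each of these fits, so these calls are no independent support. An exact permutation test of 3 samples against 3 cannot go below a two-sided p of 0.1.

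**Figure D2:**
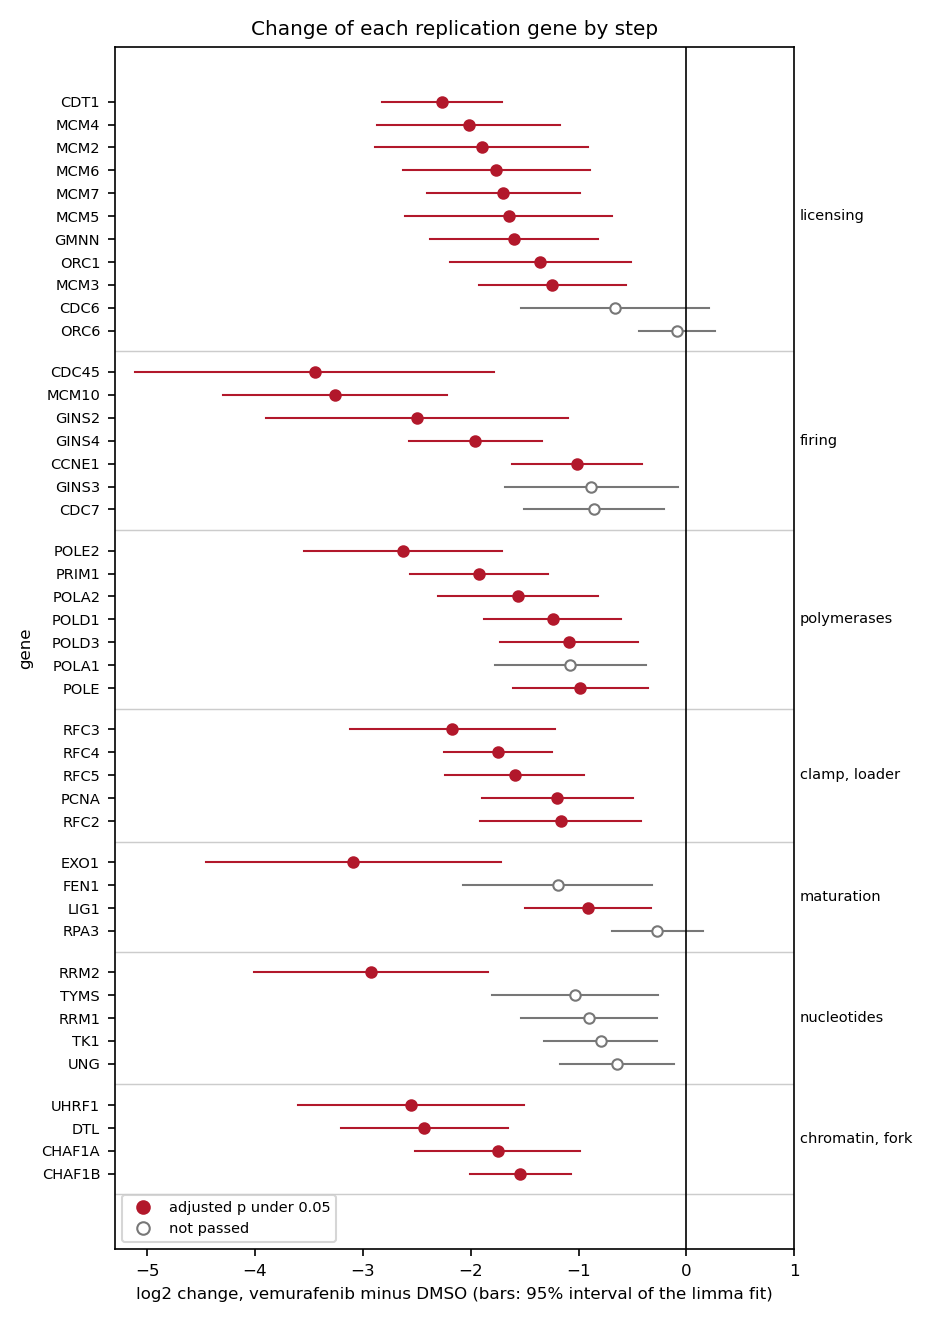
Log2 change of each measured replication gene, vemurafenib minus DMSO, by step. Points are limma estimates, bars are 95% intervals, and filled points passed at an adjusted p under 0.05 (32 of 43). All points lie left of 0, from CDC45 at -3.45 to ORC6 at -0.08.

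Of the 11 licensing genes 9 fell, with a median log2 change of -1.65. CDT1, which brings the helicase to the origin and is normally limited to the time before S phase, read log2 9.51, 9.47 and 9.76 in DMSO unnumbered, 1 and 2 and 6.84, 7.39 and 7.72 in the vemurafenib samples in the same order. That is a 4.81-fold fall (log2 -2.27 ± 0.24 SE, limma adjusted p = 0.00287), the lowest adjusted p of the 43 genes. GMNN encodes geminin, the protein that binds and inhibits CDT1, and it fell as well, 3.02-fold (adjusted p = 0.0238). The helicase loader and its inhibitor thus both gave lower signals in every vemurafenib sample than in any DMSO sample.

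The 6 subunits of the MCM2 to MCM7 ring, the core of the replicative helicase, all fell, with log2 changes between -2.02 and -1.24. MCM4, a catalytic ring subunit, read 10.64, 10.52 and 11.08 in DMSO and 8.29, 8.29 and 9.61 in vemurafenib (log2 change -2.02 ± 0.37 SE, adjusted p = 0.0158). MCM2, the subunit that also carries histones, read 9.01, 8.79 and 9.69 against 7.06, 6.53 and 8.21 (-1.90 ± 0.43 SE, adjusted p = 0.0279). In each ring subunit the groups were apart, and vemurafenib 2 was the highest treated sample. MCM6 (-1.76), MCM7 (-1.70), MCM5 (-1.65) and MCM3 (-1.24) followed, with adjusted p-values from 0.0157 to 0.0380. The ring genes moved by similar amounts in the unnumbered and 1 pairs (medians -1.98 and -1.88) and by a median of -1.25 in the pair labelled 2.

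Of the other genes that load the ring, ORC1 fell and CDC6 was measured less well. ORC1, the largest subunit of the origin recognition complex, fell 2.56-fold (adjusted p = 0.0444), from 6.37, 6.67 and 7.74 to 5.30, 5.44 and 5.97. CDC6, the ATPase that joins ORC to load the helicase, was detected on 2 of 3 DMSO arrays and 1 of 3 vemurafenib arrays. It read 4.53, 4.86 and 6.07 in DMSO and 4.45, 4.26 and 4.75 in vemurafenib, values near background whose groups overlapped (log2 change -0.67, 95% interval -1.54 to 0.21, adjusted p = 0.266).

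ORC6, the smallest ORC subunit, gave very different changes on its 2 kept probes, which carry the same transcript annotation. The brighter probe stands for the gene here and read 13.55, 13.49 and 13.64 in DMSO and 13.40, 13.61 and 13.41 in vemurafenib, a log2 change of -0.08 (95% interval -0.44 to 0.27, adjusted p = 0.747). The other probe read 7.75, 7.95 and 8.95 in DMSO and 5.68, 5.13 and 6.95 in vemurafenib, a change of -2.29 ± 0.49 (SE, adjusted p = 0.0241). On the second probe ORC6 changed about as much as CDT1, and on the first it overlapped between groups. With all kept probes of a gene averaged, ORC6 passed at -1.19 (adjusted p = 0.0282). Which probe follows the ORC6 transcript was not tested.

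**Figure D3:**
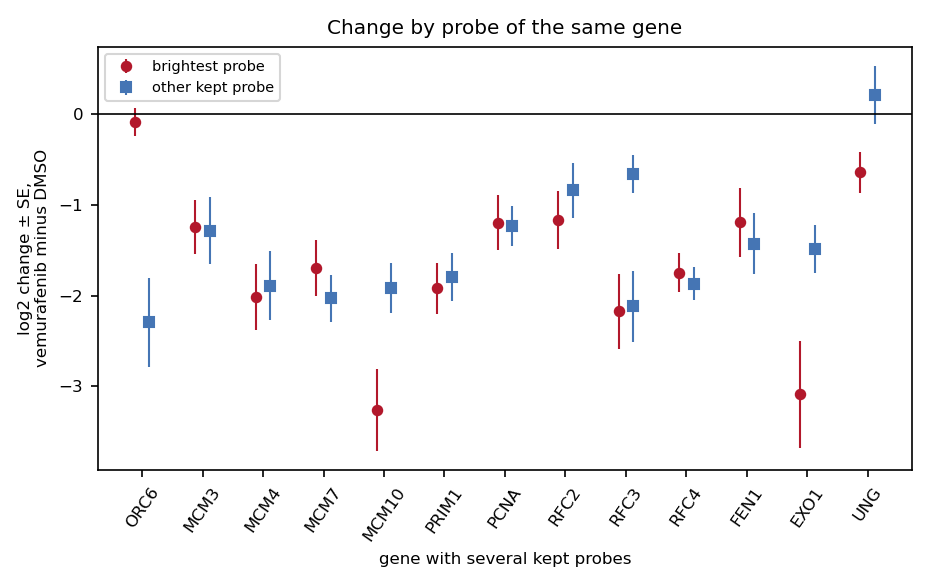
Log2 change ± SE by probe for the 13 replication genes with more than 1 kept probe; circles mark the brightest probe, which represents the gene, and squares the others. For ORC6 the brightest probe lies at -0.08 and the other at -2.29, and for UNG the dim second probe lies above 0 at 0.21.

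For most other genes with several kept probes the probes moved alike. MCM4 changed by -2.02 and -1.89, PRIM1 by -1.92 and -1.79, RFC4 by -1.75 and -1.87 and PCNA by -1.20 and -1.23. FEN1 missed the threshold on its brighter probe (-1.19) and passed on its second (-1.43, adjusted p = 0.0314). RFC2 and MCM3 passed on the brighter probe and missed on the second (-0.84, adjusted p = 0.100, and -1.28, adjusted p = 0.0539), and RFC2 also missed with its probes averaged (adjusted p = 0.0559). The dimmer probes of EXO1 and MCM10 read -1.48 and -1.92, but they were detected on 1 and 0 of 3 vemurafenib arrays, so these values cannot be set against those of the bright probes. The dimmest of 3 RFC3 probes, which is annotated to another RefSeq transcript, gave -0.66 (adjusted p = 0.0684), while the others gave -2.17 and -2.12. That probe was detected on 1 of 3 vemurafenib arrays, so its change cannot be set against theirs either. UNG was the gene whose probes differed in sign, at -0.64 and 0.21, and neither passed.

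At origin firing, 5 of 7 measured genes fell, with a median of -1.96. GINS4 and MCM10 among them met the filter with the help of the DMSO arrays, where they were higher. CDC45, which joins the MCM ring and GINS to form the active helicase, had the largest change of the set. It read 9.54, 9.55 and 10.12 in DMSO and 5.20, 5.45 and 8.22 in vemurafenib, a 10.9-fold fall (log2 -3.45 ± 0.72 SE, adjusted p = 0.0231). CDC45 was far higher in vemurafenib 2 than in the other treated samples, and the pair labelled 2 changed by -1.89 against -4.34 and -4.10 in the others. Its call was lost without each sample other than vemurafenib 2 (adjusted p up to 0.0875).

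MCM10, which activates the assembled helicase, read 8.24, 8.31 and 8.86 in DMSO and 4.78, 4.53 and 6.32 in vemurafenib, where it was detected on 1 of 3 arrays. Its fitted change of -3.26 ± 0.45 (SE, adjusted p = 0.00680) is therefore approximate. GINS2, a subunit of the 4-part GINS complex, went from 10.26, 10.09 and 10.80 to 7.08, 7.10 and 9.47 (-2.50 ± 0.60 SE, adjusted p = 0.0338). Its pattern was that of CDC45, with a far smaller change in the pair labelled 2 (-1.33 against -3.18 and -2.99).

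GINS4 fell by 1.96 on the log2 scale (adjusted p = 0.00680), an approximate value since it was detected on 2 of 3 vemurafenib arrays, and GINS3 changed by -0.88 and did not pass (95% interval -1.69 to -0.08, adjusted p = 0.127). GINS1 was detected on no array. CCNE1, the cyclin E that drives CDK2 at S phase entry, fell 2.02-fold (adjusted p = 0.0396), with the largest drop in the pair labelled 2 (-1.43, against -0.40 and -1.22). CCNE2, the second cyclin E, was detected on no array. CDC7, the kinase that phosphorylates the MCM ring to fire origins, read 7.28, 7.18 and 7.80 in DMSO and 6.37, 6.21 and 7.12 in vemurafenib. The CDC7 groups were apart, yet the change of -0.86 did not pass (95% interval -1.50 to -0.21, adjusted p = 0.0793). With the sample label as a block, CDC7 and GINS3 passed, at adjusted p-values of 0.00905 and 0.00777.

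Among polymerases and primase, 6 of 7 genes fell, with a median of -1.24. POLE2, the second subunit of the leading-strand polymerase epsilon, read 8.07, 7.90 and 8.36 in DMSO and 5.14, 4.82 and 6.47 in vemurafenib (6.19-fold lower, log2 -2.63 ± 0.40 SE, adjusted p = 0.00929). POLE, its catalytic subunit, fell less, from 6.43, 6.71 and 7.06 to 5.65, 5.35 and 6.25 (-0.98 ± 0.27 SE, adjusted p = 0.0482). PRIM1, the catalytic primase subunit that starts each new strand with RNA, read 9.60, 9.51 and 9.67 and then 7.25, 7.44 and 8.32 (-1.92 ± 0.28 SE, adjusted p = 0.00815). The control values of PRIM1 lay close together (SD 0.08, n = 3), and those under drug spread more widely (SD 0.57, n = 3).

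POLA2, the regulatory subunit of polymerase alpha, went from 8.90, 9.13 and 9.40 to 7.27, 7.15 and 8.34 (-1.56 ± 0.32 SE, adjusted p = 0.0224). POLA1, its catalytic subunit, changed by -1.08 and lay just outside the threshold (95% interval -1.77 to -0.38, adjusted p = 0.0513), with groups that did not overlap. The lagging-strand polymerase delta subunits POLD1 and POLD3 fell 2.36-fold and 2.13-fold (adjusted p = 0.0266 and 0.0384).

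All 5 listed genes of the sliding clamp and its loader fell, with a median of -1.59. RFC1, the large loader subunit, belongs to the second list described below and did not pass (-0.40, limma adjusted p = 0.112). RFC3 read 8.01, 8.04 and 8.90 in DMSO and 5.73, 5.65 and 7.05 in vemurafenib (-2.17 ± 0.41 SE, adjusted p = 0.0175). RFC4 read 9.99, 9.85 and 9.87 and then 7.84, 8.04 and 8.59 (-1.75 ± 0.22 SE, adjusted p = 0.00508). RFC5 went from 9.67, 9.52 and 9.88 to 7.69, 7.87 and 8.72 (-1.59 ± 0.28 SE, adjusted p = 0.0141). These small subunits of the loader, which open the clamp around DNA, were lower in every treated sample. RFC2, another small subunit, changed least, from 7.31, 7.53 and 8.28 to 6.48, 6.09 and 7.06 (-1.17 ± 0.32 SE, adjusted p = 0.0493). PCNA, the clamp itself and a common marker of dividing cells, fell 2.29-fold (adjusted p = 0.0388).

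Strand maturation was divided, with 2 of 4 genes falling. EXO1, an exonuclease of replication and mismatch repair, read 8.58, 8.34 and 9.26 in DMSO and 4.79, 4.98 and 7.14 in vemurafenib (8.50-fold lower, log2 -3.09 ± 0.59 SE, adjusted p = 0.0179). LIG1, the ligase that seals Okazaki fragments, read 6.73, 7.17 and 6.99 and then 5.85, 5.74 and 6.58 (-0.91 ± 0.25 SE, adjusted p = 0.0490). FEN1, the nuclease that trims the fragments before sealing, changed by -1.19 and did not pass on its bright probe (95% interval -2.07 to -0.32, adjusted p = 0.0731). RPA3, the small subunit of the protein that coats single-stranded DNA, read 11.66, 11.62 and 11.54 in DMSO and 11.15, 11.20 and 11.65 in vemurafenib. RPA3 was lower in the unnumbered and 1 pairs (-0.50 and -0.43) and not in the pair labelled 2 (0.11), for an overall change of -0.27 (95% interval -0.69 to 0.15, adjusted p = 0.352).

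Nucleotide supply gave the fewest calls, 1 of 5, although the groups of all 5 genes were apart. The 1 call was that of RRM2, which met the filter with the help of the DMSO arrays. RRM2, the subunit of ribonucleotide reductase that holds the tyrosyl radical, read 7.85, 7.66 and 8.53 in DMSO and 4.63, 4.42 and 6.22 in vemurafenib, where it was detected on 2 of 3 arrays (log2 change -2.92 ± 0.47 SE, adjusted p = 0.0112). RRM1, the large subunit of the same enzyme, changed by -0.90 (adjusted p = 0.0634). TYMS, which makes thymidylate, changed by -1.03 (adjusted p = 0.0758) and TK1, which salvages thymidine, by -0.79 (adjusted p = 0.0539). UNG, the glycosylase that removes uracil from DNA, read 10.35, 10.24 and 11.03 and then 9.92, 9.82 and 9.96, a change of -0.64 (95% interval -1.17 to -0.11, adjusted p = 0.0979). With the sample label as a block all 5 passed, with adjusted p-values from 0.00122 for RRM2 to 0.0432 for UNG.

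Of 5 listed genes of chromatin assembly and fork surveillance, 4 were measured and fell, with a median of -2.09 that was -1.13 without background correction. DTL and CHAF1A among them met the filter with the help of the DMSO arrays, where they were higher. The order of the steps changed without the correction, since firing then had a median of -0.89, licensing one of -1.25 and the clamp step one of -1.37. UHRF1, which guides maintenance of DNA methylation behind the fork, read 10.59, 10.53 and 11.34 in DMSO and 7.73, 7.72 and 9.35 in vemurafenib (5.86-fold lower, log2 -2.55 ± 0.45 SE, adjusted p = 0.0150). DTL, the ubiquitin ligase adaptor that directs destruction of CDT1 during S phase, read 7.50, 7.07 and 8.17 and then 5.14, 4.67 and 5.64 (-2.43 ± 0.34 SE, adjusted p = 0.00680). The DTL change was alike in the 3 pairs, at -2.36, -2.40 and -2.53.

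CHAF1A and CHAF1B are subunits of CAF-1, which places histones on new DNA. CHAF1A read 6.25, 6.53 and 7.48 in DMSO and 5.03, 4.66 and 5.32 in vemurafenib (-1.75 ± 0.33 SE, adjusted p = 0.0175), and CHAF1B 7.56, 7.53 and 7.87 against 5.85, 6.05 and 6.43 (-1.54 ± 0.20 SE, adjusted p = 0.00618). DTL and CHAF1A were detected on 2 of 3 vemurafenib arrays, so their changes are approximate. CLSPN, the claspin that relays fork stalling to the checkpoint, was detected on 2 of 3 DMSO arrays and 0 of 3 vemurafenib arrays and did not pass the filter. It read 4.70, 4.78 and 5.38 against 4.30, 4.16 and 4.19.

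The fitted changes of subunits of 1 complex differed in size, each subunit being read on a single probe. Probes of the same gene could differ too, as for ORC6 (-0.08 and -2.29), though most moved alike. Whether the subunit RNAs fell by unequal amounts was not tested. The gaps that follow were picked out after the values were seen, as the largest against the smallest fall in each complex, and are given without a test, as the log2 change of the first gene minus that of the second. The gap was -1.65 for POLE2 and POLE, and -2.14, -1.71 and -1.08 in the unnumbered, 1 and 2 pairs, and -1.05 with no background correction. For RRM2 and RRM1 it was -2.02, and -2.10, -2.40 and -1.57 in the pairs, and with no background correction it was -0.77. These subunits kept their order in every pair. For GINS2 and GINS3 the gap was -1.62, with -2.22 and -2.25 in the unnumbered and 1 pairs against -0.38 in the pair labelled 2. It was -1.01 for RFC3 and RFC2 (-0.67 with no background correction) and -0.77 for MCM4 and MCM3. The CAF-1 and polymerase delta subunits had no fixed order. The gap for CHAF1A and CHAF1B was -0.21, with 0.49, -0.39 and -0.73 in the pairs and 0.14 without background correction. For POLD1 and POLD3 it was -0.15, with -0.60, -0.07 and 0.21 in the pairs.

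The pairs of like-labelled samples gave the same direction for nearly the whole set. In 41 of 43 genes all 3 pairs were lower with vemurafenib, the exceptions being ORC6 and RPA3. For the 39 genes whose groups were apart, any pairing of the samples had to be lower, so this count largely repeats that one. The share over all genes is not given here for this count or for the next ones. The pair labelled 2 had the smallest fall for 29 genes and the largest for 9. Its median was -1.33, against -1.63 in each of the other pairs. By step, the pairs stood furthest apart for firing (-2.07, -2.16 and -1.43) and closest for chromatin and fork genes (-2.04, -2.14 and -2.07).

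**Figure D4:**
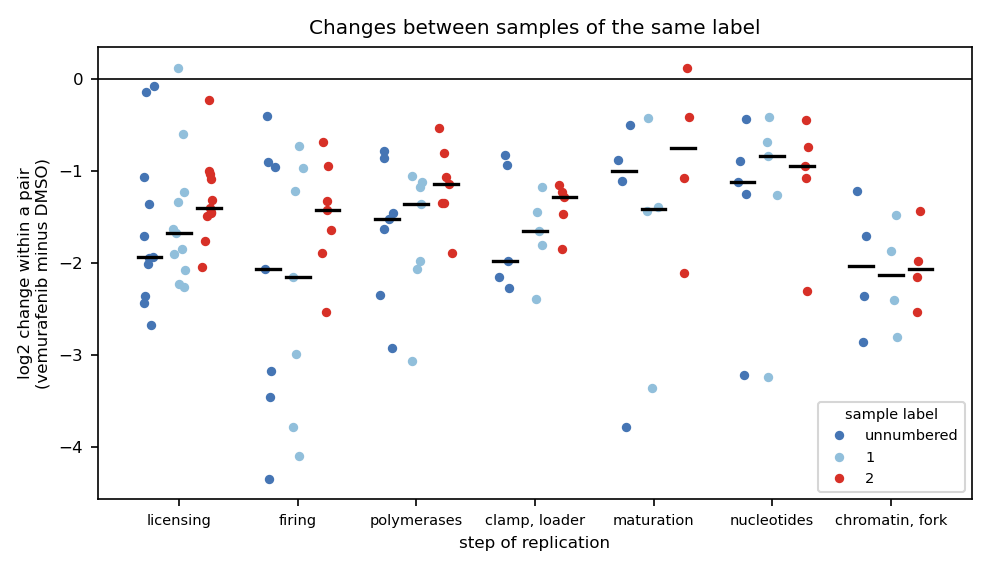
Log2 change of each replication gene between the vemurafenib and DMSO samples of the same label, by step; colours mark the labels and black bars the median of a step. Medians run from -2.16 (firing, pair 1) to -0.75 (strand maturation, pair 2), and 2 single values lie above 0, those of ORC6 in pair 1 and RPA3 in pair 2.

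Replication genes outside the list were read from a second list of 50 genes. Of 44 measured, 18 fell, 0 rose and 26 did not pass, with a median log2 change of -0.83. Of all genes, 7.95% fell and 8.09% rose. An unadjusted limma p under 0.05 was found for 29 of the 44, against 3962 of all 11220 genes. The largest falls were those of ASF1B, a histone chaperone (log2 -2.90, adjusted p = 0.0290), CDCA7, a partner of the remodeller HELLS (-2.60, adjusted p = 0.00418), CCNA2, the cyclin of S phase and G2 (-2.55, adjusted p = 0.0241), and TOP2A, the topoisomerase that untangles copied DNA (-1.86, adjusted p = 0.0396). Of the remaining ORC, polymerase, primase, RFC and RPA subunits, POLE3 fell (-1.03, adjusted p = 0.0289) and the others did not pass. DSCC1, of the alternative clamp loader built around CTF18, fell (-1.70, adjusted p = 0.0319). ORC2 (-0.18), ORC3 (0.17), ORC4 (-0.06) and ORC5 (-0.11) changed least, together with POLE4 (-0.01). RPA2 (-0.73), POLD2 (-0.58), RFC1, the large clamp loader subunit (-0.40), and RPA1 (-0.39) lay lower in all 3 vemurafenib samples than in any DMSO sample. PRIM2 changed by -0.49 with groups that overlapped (adjusted p = 0.390), and it was higher with vemurafenib in the pair labelled 2 (0.56). POLD4 lay higher in all 3 vemurafenib samples (1.00, adjusted p = 0.0975). RRM2B, the alternative small subunit of ribonucleotide reductase that p53 induces, read higher in all 3 vemurafenib samples than in any DMSO sample, by 0.48, without passing (adjusted p = 0.204). The count of 18 was 25 with the sample label as a block, against 13.6% of all genes in that fit.

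**Figure D5:**
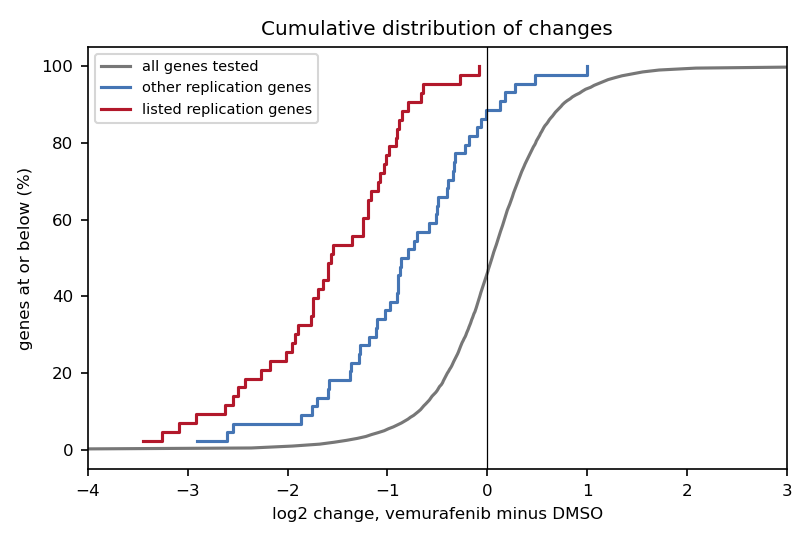
Share of genes (vertical axis, %) at or below each log2 change (horizontal axis) for the 43 listed replication genes, the 44 other replication genes and all 11220 genes tested. The listed genes reach 100% before 0, with a median of -1.56, the other replication genes have a median of -0.83 and all genes one of 0.05.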

How the data were processed

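Biotin-labelled cRNA of 6 samples went onto Illumina bead arrays, per the labels' protocols. For each array the authors deposited the intensity of 48107 probes and, per the file headers, their detection p-values. How background was handled before deposit is not stated. A second deposited table holds log2 values, which differ from quantile-normalized intensities by at most 0.0513.

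Here 4 probes with missing values were dropped. Intensities were corrected in limma 3.58.1 (R 4.3.3) by normexp, with background inferred from the detection p-values and an offset of 16, quantile normalized between arrays and log2 transformed. This correction enlarges log2 changes of dim genes relative to uncorrected values. Probes detected (p under 0.01) on at least 3 arrays were kept (18747). A gene is its kept probe with the highest mean. Groups were compared with lmFit and eBayes, with Benjamini-Hochberg adjustment over all kept probes. The fit was tested on simulated data. Members, lists and the naming rule (in each step, up to 3 passing genes with the largest change and the gene with the smallest) were chosen with earlier results of these data known. Some genes of the other lists are not reported here.

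Same-labelled samples deviated together from their group means (r = 0.19, 0.35 and 0.52 for unnumbered, 1 and 2), and the label was also fitted as a block. The block took its pairs from the labels, which do not state that the samples are paired. The unnumbered and 1 samples correlated as well across labels as within them. DMSO 1 with vemurafenib unnumbered gave 0.26, and DMSO unnumbered with vemurafenib 1 gave 0.35. The check thus sets the samples labelled 2 apart, and does not show how the unnumbered and 1 samples pair. The unnumbered and 1 samples of a group were closest to each other, with an SD of probe differences of 0.30 and 0.32, against 0.53 to 0.56 for pairs with sample 2. With few arrays, their number limits the precision.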

Additional observations from a re-analysis of the deposited data

How the results depend on the processing

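The direction of all 43 measured genes was negative under all 17 alternatives, and 0 rose in any. Changing the detection filter, the trend and robust options and the replicate block left each estimate of these genes as it was. In those settings the direction could not differ from the main fit. The count of 32 falling genes stayed within 27 to 40 with median centring (27), without background correction (30), with an offset of 50 (34), a detection p under 0.05 (29), the deposited log2 values (29), trend and robust options (35), the mean of all kept probes (33), the replicate block (40) and without both samples labelled 2 (39). Those fits called between 5.86% and 14.8% of all genes lower. The count was 11 of 46 with no detection filter, where more probes enter the adjustment, against 2.23% of all genes. With single samples left out it was between 8 and 39, against 1.63% to 11.2% of all genes. With the unnumbered and 1 samples averaged it was 0, against 0.107%. The 18 other replication genes were 5 with no filter and 3 to 26 with single samples left out. They were 28 without both samples labelled 2 and 0 with averaging. The all-gene shares in the same order were 2.23%, 1.63% to 11.2%, 14.8% and 0.107%. With averaging, 34 listed genes had an unadjusted limma p under 0.05, a count not given here for all genes. The median change lay between -1.13 and -1.91. Median centring moved the median of all genes to 0.12 and the share of higher calls from 50.4% to 60.8%. The paired fit lost no call of the 32. Genes near background, such as CDC6, CLSPN and the treated values of MCM10, are limited by signal over background.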
